A study of Mus musculus with 21 samples.

Results

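The translation initiation and elongation factors were followed in mouse hindlimb muscle across 4 groups of libraries. They were taken as the protein-coding genes of the count table whose symbol begins with Eif or Eef and a digit. The translation repressors Eif4ebp1 and Eif4ebp2, the eIF2 kinases Eif2ak2 and Eif2ak3, and genes on the X and Y chromosomes were left out. Of 46071 genes in the table, 75 had such a symbol, and 8 that do not code for protein, the 4 named genes and 3 sex-linked genes were removed, which left 60. The filter on low counts kept 57 of the 60 factors and 12658 genes in all. The 3 factors that it removed had 1 (Eif4e1b), 7 (Eif4ebp3) and 41 (Eef1akmt3) counts over all libraries together.

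Initiation factors bring the small ribosomal subunit, the initiator methionyl-tRNA and the capped mRNA together and place the ribosome on a start codon. Elongation factors then deliver aminoacyl-tRNAs to the ribosome and move it along the mRNA. In skeletal muscle, insulin signalling promotes both steps, largely by phosphorylation of these factors and their regulators, and many of their mRNAs belong to the TOP class, whose terminal oligopyrimidine tract couples their own translation to mTOR activity. RNA counts measure the mRNA level alone and not phosphorylation, protein amount or translation rate.

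All 4 groups carried floxed Foxo1, Foxo3 and Foxo4 on a mixed background of C57Blk6, C57Blk6J and 129 strains, with littermates as controls. The groups were floxed controls (4 libraries), triple knockouts (TKO) in which ACTA1-Cre, driven by the skeletal actin promoter, deletes the FoxO genes in muscle fibres but not in the other cells of the tissue (6), floxed mice given streptozotocin (STZ floxed, 5), and knockouts given the same drug (STZ TKO, 6). STZ kills the beta cells of the pancreas and so makes mice diabetic. It was injected at 150 mg/kg, and females got a further 75 mg/kg on day 3. Diabetic mice were used when random blood glucose stayed above 300 mg/dL, and the study's controls received citrate buffer. The labels give neither age nor sex for a library, nor whether libraries are separate animals, so p-values measure the spread between libraries. RNA came from quadriceps and gastrocnemius powdered together. Libraries are named here by the number in their title.

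Total counts per library ran from 2951290 to 7687823. Foxo1 ran from 7 to 26.7 CPM (library-scaled counts, with TMM scaling of the library size) in the knockout libraries against 36.4 to 113 in the floxed libraries, and Foxo4 from 3.87 to 12.7 against 124 to 201. Foxo3 was not lower in the knockouts, at 73.7 to 233 CPM against 64.1 to 114 in the floxed libraries. Its log2 change was 0.40 ± 0.25 without STZ (adjusted p = 0.616) and 0.59 ± 0.23 under STZ (adjusted p = 0.148), and as the sources used here do not name the deleted exons, its whole-gene count does not check its deletion. Summed mRNA of 14 macrophage markers ran from 190 to 255 CPM in floxed, 313 to 1796 in TKO, 211 to 304 in STZ floxed and 287 to 2267 in STZ TKO libraries. None of the 14 was at 0 in all libraries, 13 of 14 were higher in STZ TKO than in STZ floxed muscle, and 7 passed the test there. Other markers differed there too, higher in 9 of 9 fibroblast genes (1 past the test), 10 of 11 denervated or immature fibre genes and 0 of 10 endothelial genes. The muscle fibre markers were higher in 7 of 11, the satellite cell markers in 3 of 3 and the adipocyte markers in 1 of 5. The part of these lists in the results was not tested. In bulk tissue, fewer cells of a type and less RNA per cell cannot be told apart. The muscle fibre markers, summed, were present in every library and lowest in library 17, at 67280 CPM against up to 252761.

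Levels of the factors spanned more than 3 orders of magnitude per kilobase of exon. Per kilobase (mean CPM over all libraries divided by the union exon length), Eef2, the GTPase that translocates the ribosome, was the most abundant at 980, followed by Eef1a2 at 349, Eif1 at 323, Eef1a1 at 285 and Eif5a at 134. Eef1a2 and Eef1a1 encode the isoforms that deliver aminoacyl-tRNA, Eif1 guards start codon selection, and Eif5a relieves stalled peptide bond formation. The scaffold Eif4g1, which links the cap-binding protein to the ribosome, stood at 121 per kilobase, close to the 116 of its relative Eif4g2, which does not bind the cap-binding protein, and well above the 21.4 of the second scaffold Eif4g3. Of the helicases that unwind the leader, Eif4a2 stood at 82.2 and Eif4a1 at 19.5 per kilobase. The cap-binding protein Eif4e stood at 15.3 and its atypical relative Eif4e3 at 15.9. The union holds every annotated exon, whichever of them the muscle uses, so comparisons between genes depend on the annotation. Not divided by length, Eif4g2 stood at 1175 and Eif4g1 at 885 CPM, and Eif4e at 91.7 and Eif4e3 at 40.1 CPM. At the low end were Eif5a2, a paralog of Eif5a, at 0.548, Eif3j2 at 1.34 and Eif2ak4 at 1.83.

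**Figure D1:**
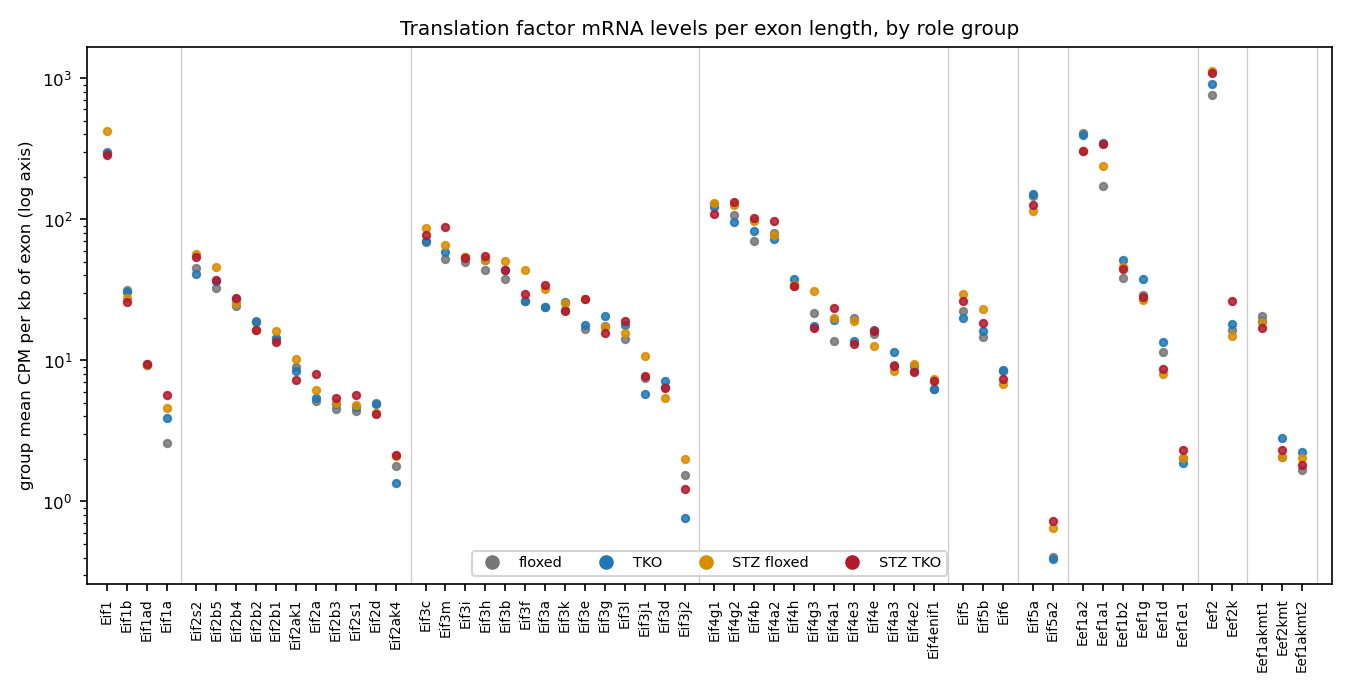
Group mean mRNA level per kilobase of exon (CPM per kb, log axis) of the 57 factors tested, arranged by role, with 1 coloured point for each of the 4 groups. Eef2 is the highest at 980 over all libraries, and the 4 points of a gene lie close together relative to the range over genes.

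Together, the 60 genes took 0.995 to 1.06% of all counts in floxed libraries, 1.17 to 1.44% in TKO, 1.18 to 1.89% in STZ floxed and 1.13 to 1.68% in STZ TKO libraries. The floxed controls lay below every other library in this raw share. After TMM scaling the summed levels overlapped, at 10149 to 12043, 10665 to 13794, 11664 to 16791 and 10449 to 16358 CPM in the same order of groups. The middle factor had an SD between libraries of a group of 0.36 on the log2 CPM scale, against 0.43 over all genes tested. Among genes whose log2 CPM averaged at least 4, the medians were 0.35 for 51 factors and 0.36 for 6280 genes.

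The comparison of STZ TKO with STZ floxed muscle, the knockout effect under diabetes, held the one factor that passed the test. Eif4g3, which encodes the second eIF4G scaffold and joins the cap-binding protein, the helicase and eIF3, fell by 0.88 on the log2 scale in the knockout. The gene lies on chromosome 4 from 137993022 to 138208508 on the plus strand of GRCm38. Because its level differed between the genotypes, the 250 bases before its RefSeq start are shown beside those of Eef2, the most abundant factor, with the forkhead core TAAACA, or TGTTTA where it lies on the other strand, in capitals. Both are RefSeq promoters of build GRCm38.p6, read 5′ to 3′ on the plus strand, Eif4g3 at chr4:137993205-137993454 and Eef2 at chr10:81176381-81176630. The RefSeq start of Eif4g3, at 137993455, lies 433 bases after the start of the GENCODE gene given above, so its stretch lies within that gene's span. The Eef2 stretch ends at the base before both annotations' start, at 81176631.
Eif4g3: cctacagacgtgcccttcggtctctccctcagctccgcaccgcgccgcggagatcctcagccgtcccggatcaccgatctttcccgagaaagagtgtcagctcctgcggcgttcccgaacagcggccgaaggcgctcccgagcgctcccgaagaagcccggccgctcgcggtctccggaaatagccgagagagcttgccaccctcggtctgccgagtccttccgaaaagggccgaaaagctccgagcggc
Eef2: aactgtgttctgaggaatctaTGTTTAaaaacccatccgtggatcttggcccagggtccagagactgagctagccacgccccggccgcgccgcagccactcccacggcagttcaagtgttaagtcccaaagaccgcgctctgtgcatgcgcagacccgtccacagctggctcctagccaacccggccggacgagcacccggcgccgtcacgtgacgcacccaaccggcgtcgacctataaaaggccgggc
In the Eif4g3 stretch, 1 of 2 starts listed for the gene, TAAACA does not occur on either strand, and in Eef2 it occurs once, on the other strand at 229 to 224 bases before the start. Over the window from 250 bases before to 50 after the start, TAAACA was found on either strand in 13.4% of 32851 RefSeq promoters and in 5 of the 60 promoters of the factors, or 8.33%. Counted by gene, these were 15.1% of 27025 genes and 5 of the 45 factors with an entry, or 11.1%, namely Eef2, Eef2k, Eef2kmt, Eif2s2 and Eif4a2. The longer GTAAACA, which contains it, was found in 3.65% of all promoters, or 4.05% of genes, and in none of the factors. A match describes the letters of this window and is not evidence of binding.

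In STZ floxed muscle, Eif4g3 stood at 357, 362, 316, 358 and 332 CPM in libraries 3, 7, 14, 17 and 21. In STZ TKO muscle it ran from 123 to 228 CPM with a median of 183. All 6 knockout libraries therefore lay below all 5 floxed ones. The log2 fold change was -0.88 ± 0.16 (SE), from 345 ± 20 (SD, n = 5) to 187 ± 38.5 CPM (SD, n = 6), with an adjusted p of 0.00205 in edgeR's quasi-likelihood test. Leaving out any 1 library gave -0.94 to -0.79 with adjusted p between 0.0017 and 0.00691. With the macrophage marker level as a covariate, an alternative chosen after the data were seen, the change was -0.65 and its adjusted p 0.0846. This level, the mean centred log2 CPM of the markers, differed by genotype. It ran from -1.05 to -0.5 in STZ floxed and from -0.63 to 1.86 in STZ TKO libraries. Without STZ it ran from -1.03 to -0.77 in floxed and from -0.48 to 2.05 in TKO libraries. No fit with this covariate can therefore fully separate the level from the knockout. Without libraries 4, 6, 15 and 20, chosen likewise as the highest by this level, the change of Eif4g3 was -0.85 with an adjusted p of 0.00656. Without libraries 4, 15, 16 and 20, a set taken from earlier results of these data in which library 6 has a higher level than 16, it was -0.85 with 0.013. Without STZ, Eif4g3 stood at 241, 280, 210 and 234 CPM in floxed libraries 1, 5, 9 and 19 and ran from 147 to 224 with a median of 207 in TKO libraries. These groups overlapped, and the log2 change of -0.32 ± 0.17 did not pass (adjusted p = 0.512). Over the alternatives it ran from -0.39 with runs of library codes as a block to -0.08 with the macrophage covariate, with adjusted p between 0.31 and 1, and it was -0.17 without libraries 4, 6, 15 and 20. The difference between both knockout effects, the interaction, was -0.56 ± 0.24 on the log2 scale, with an unadjusted p of 0.0271 and an adjusted p of 1.

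In this comparison 1 of 57 factors passed at an adjusted p under 0.05, or 1.75%, against 4.89% of all 12658 genes in either direction and 2.42% lower. At an unadjusted p under 0.05 there were 8 factors, 1 higher and 7 lower in the knockout, against 18.7% of all genes, 10.7% higher and 7.99% lower. Eif4g3 was the only factor whose groups did not overlap, against 3.74% of all genes in either direction and 2.24% lower. The median log2 change of the factors was 0.00, beside 0.03 for all genes, and 29 of 57 lay above 0, a share of 50.9% against 53.6% of all genes. Without libraries 4, 6, 15 and 20 the median was 0.13, and leaving out single libraries gave -0.06 to 0.07. The eIF3 subunits had 6 of 14 above 0 with a median of -0.09, and the eEF1 genes 4 of 6 with 0.09. Of the 12 tested genes of the eIF4 cap complex and its relatives, Eif4g3 fell and 11 did not pass. Eif4g1 stood at 1088, 896, 892, 1048 and 829 CPM in STZ floxed libraries and from 538 to 890 with a median of 832 in STZ TKO ones. Its log2 change was -0.26 ± 0.18 (adjusted p = 0.479), and -0.17 without library 8 (adjusted p = 0.644), and the groups overlapped. Eif4e had a log2 change of 0.34 ± 0.21 (adjusted p = 0.408), and 0.09 without library 8.

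Eif4e3, Eif2ak1 and Eef2k came next by p-value and did not pass. Eif4e3 stood at 49.5, 54.1, 38.9, 49.6 and 46.9 CPM in STZ floxed and from 26.5 to 45.3 with a median of 30 in STZ TKO libraries. Its log2 change was -0.55 ± 0.17 with an adjusted p of 0.058, and without STZ it was -0.54 ± 0.18 with an adjusted p of 0.169. Its levels overlapped between genotypes both with and without STZ. The heme-regulated eIF2 kinase Eif2ak1 stood at 49, 60.5, 53.8, 71.1 and 53.5 CPM in STZ floxed and from 34.5 to 50.3 with a median of 38.3 in STZ TKO libraries. Its log2 change was -0.49 ± 0.15 with an adjusted p of 0.0669, and the groups overlapped between 49 and 50.3 CPM. Exons of Aimp2 and Ankrd61 overlap Eif2ak1 on the opposite strand, the larger overlap over 487 of its 5670 exon bases. As the strand setting of the count is not given, reads in the overlap cannot be told apart from its own. Eif4e3 shares 373 of its 2515 exon bases with Gm20696 on the same strand. With DESeq2's Wald test the adjusted p was 0.0233 for Eif4e3 and 0.0285 for Eif2ak1, so 3 factors passed, or 5.26%, against 7.99% of all genes. With runs of library codes as a block in edgeR it was 0.0363 and 0.0417, and again 3 factors passed, against 8.44% of all genes. Leaving out single libraries gave Eif4e3 -0.67 to -0.50 with adjusted p from 0.0188 (without library 12) to 0.135, and it passed also without library 8 (0.0439). For Eif2ak1 it gave -0.56 to -0.41 with adjusted p from 0.0401 (without library 18) to 0.153. With the macrophage covariate neither passed, at -0.42 (adjusted p = 0.396) and -0.34 (adjusted p = 0.476).

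Eef2k, the kinase that inhibits eEF2 by phosphorylation, was the one factor with an unadjusted p under 0.05 and a higher level in the diabetic knockout. It stood at 101, 148, 99.2, 61.8 and 137 CPM in STZ floxed and at 125, 94.6, 312, 134, 135 and 373 CPM in STZ TKO libraries 4, 8, 11, 12, 15 and 18. Libraries 11 and 18 alone stood above the other group. The log2 change was 0.84 ± 0.31 (adjusted p = 0.129), and without library 18 it was 0.55 (adjusted p = 0.279). With the macrophage level as a covariate it was 1.36 with an adjusted p of 0.0424. Its substrate Eef2 had a log2 change of -0.03 ± 0.21 (adjusted p = 0.96), which ran from -0.14 to 0.20 over the alternatives. Eif1, next by p-value, had a log2 change of -0.58 ± 0.24 (adjusted p = 0.174), with 355 to 784 CPM in STZ TKO and 715 to 1160 in STZ floxed libraries, and with the macrophage covariate it was -0.21 (adjusted p = 0.823).

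**Figure D2:**
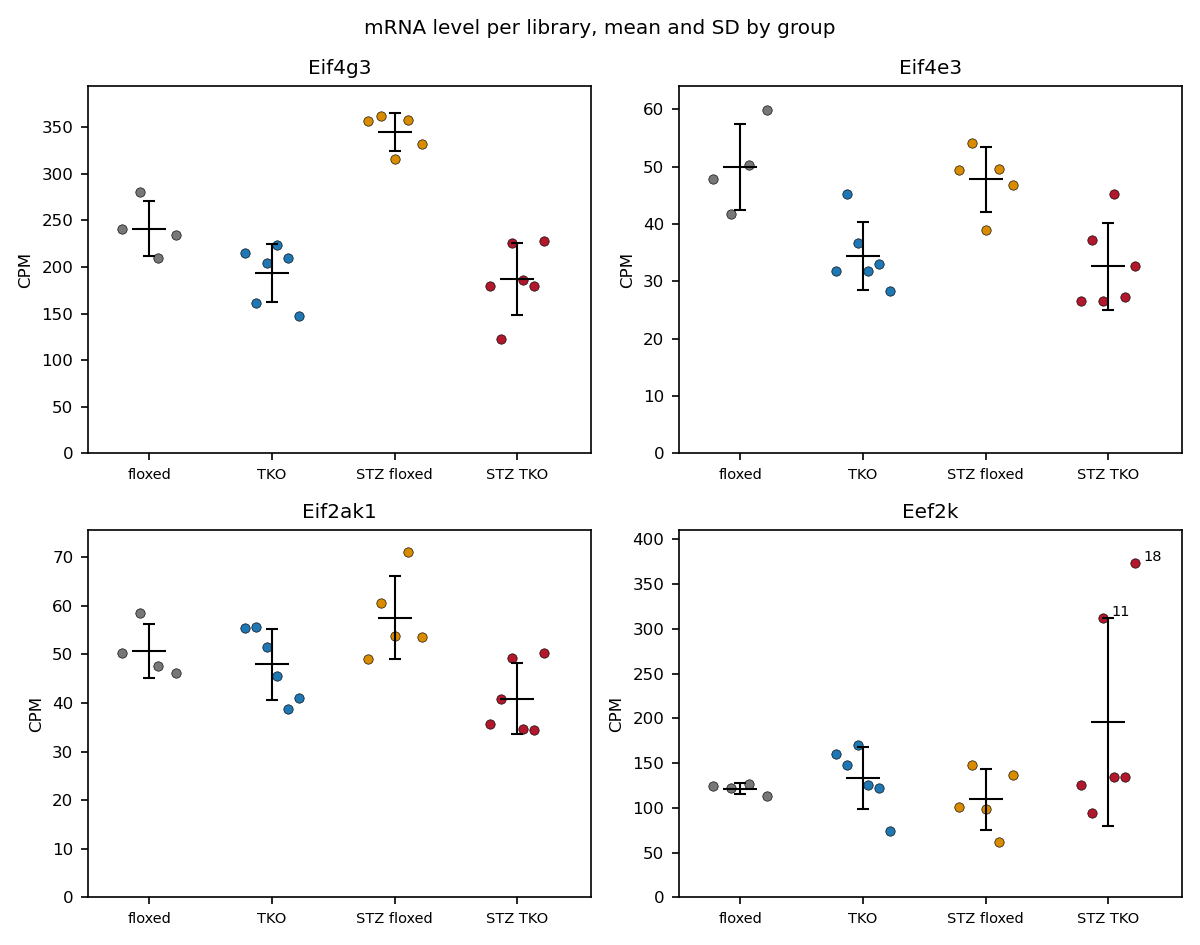
CPM of Eif4g3, Eif4e3, Eif2ak1 and Eef2k in each library (points) by group, with the group mean and SD as black bars. The 6 STZ TKO libraries of Eif4g3, at 123 to 228 CPM, lie below all STZ floxed libraries, and Eef2k stands high in libraries 11 and 18 of the STZ TKO group.

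Without diabetes, TKO against floxed, none of the 57 factors passed edgeR's test or DESeq2's, against 0.514% of all genes by edgeR and 2.77% by DESeq2. At an unadjusted p under 0.05 there were 3, 1 higher and 2 lower, or 5.26%, against 11.5% of all genes, 6.7% higher and 4.77% lower. No factor had groups without overlap, against 4.97% of all genes. The factors' median log2 change was 0.08, beside 0.00 for all genes, and 36 of 57 lay above 0, against 50.5% of all genes. With upper-quartile scaling the number above 0 was 43, while the median of all genes also moved, to 0.05. Without library 6 the factors' median was 0.01. By role, 11 of 14 subunits of eIF3, the scaffold that holds the small ribosomal subunit, had a change above 0 with a median of 0.12. Of the 6 genes grouped by symbol as eEF1 (Eef1a1, Eef1a2, Eef1b2, Eef1d, Eef1g and Eef1e1), 4 did with a median of 0.30.

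The second smallest p among the factors here belonged to Eef1a1, the isoform of eEF1A that most tissues use. It stood at 422, 422, 466 and 392 CPM in floxed libraries and at 529, 692, 730, 441, 696 and 2082 in TKO libraries 2, 6, 10, 13, 16 and 20. Library 20 was far above the rest, and library 13 lay within the floxed range. The log2 change was 1.02 ± 0.34 (adjusted p = 0.177). Library 20 also had the highest summed level of denervated or immature fibre markers, at 2083 CPM against 121 to 256 in the other TKO libraries, whose part in the result was not tested. Without it the change was 0.55 (adjusted p = 0.499). Library 20 held the highest macrophage markers of its group as well, and with their level as a covariate the change was 0.07 (adjusted p = 1). The other low p-values belonged to Eif4e3, given above, and to Eif3j2, a copy of the eIF3j gene, which ran from 1.2 to 2.5 CPM with a median of 1.76 in TKO libraries and stood at 2.65, 3.06, 2.24 and 6.62 in floxed ones. Its log2 change was -0.98 ± 0.39 (adjusted p = 0.285), and without library 19, its highest floxed value, it was -0.51 (adjusted p = 0.81). Reads of near-identical copies can be lost or shared in such a count. Eif1a, which works with eIF1 in scanning, had a change of 0.61 ± 0.33 (adjusted p = 0.534).

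Diabetes in muscle with intact FoxO genes, STZ floxed against floxed, gave 0 factors past edgeR's threshold, against 1.35% of all genes. With DESeq2's Wald test 1 passed, Eif4g3, with a higher level in the STZ group, or 1.75%, against 3.36% of all genes. At an unadjusted p under 0.05 there were 8 factors, all higher under STZ, or 14%, against 6.72% of all genes that were higher at this p and 14.4% in either direction. In 4 factors, Eef2, Eif3b, Eif4g3 and Eif5b, all STZ libraries lay above all floxed ones and in none below, a share of 7.02% against 3.62% of all genes above and 8.79% in either direction. The median log2 change was 0.19, beside 0.02 for all genes, and 39 of 57 lay above 0, a share of 68.4% against 51.6% of all genes. Library 17 held the highest value of its group in 28 of the 57 factors. It was also the library with the lowest muscle fibre markers, whose part in the result was not tested. The factors' median change was 0.16 without library 17 and 0.14 without libraries 17 and 18. Over single libraries left out it ran from 0.12 (without library 7) to 0.23. The muscle fibre markers were lower under STZ in 10 of 11 genes with a median of -0.48, none past the test. The fibroblast markers were lower in 9 of 9 with a median of -0.98, 2 of them past it. Their part in the result was not tested.

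By role, of the 14 eIF3 subunits, 12 had a change above 0 with a median of 0.33. Of 11 genes with an Eif2 symbol (eIF2, its exchange factor eIF2B, the eIF2 kinases, Eif2a and Eif2d), 9 did with a median of 0.19. The eIF4 group had 8 of 12 above 0 with a median of 0.09, and the eEF1 group 3 of 6 with a median of -0.05. Of 10 factors with TOP mRNAs, 7 lay above 0 with a median of 0.37. None of these genes passed edgeR's test in this comparison. For TKO against floxed, 8 of the 10 lay above 0 (median 0.24), for the knockout under STZ 6 (0.04). For STZ in TKO there were 5 (0.03), and for the interaction 1 (-0.22).

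Eef2 stood at 2780, 2913, 2570 and 1888 CPM in floxed libraries and at 3722, 3411, 3248, 4596 and 3563 in STZ floxed ones. Its groups did not overlap, and the log2 change of 0.55 ± 0.23 had an adjusted p of 0.27. Eif5b, the GTPase that joins the ribosomal subunits, stood at 113, 173, 153 and 133 CPM in floxed and at 188, 269, 175, 271 and 225 in STZ floxed libraries. The log2 change was 0.65 ± 0.23 (adjusted p = 0.18). The highest floxed and lowest STZ value differed by little, and exons of Rev1 overlap Eif5b on the other strand. Eif4g3, with the values above, had a log2 change of 0.52 ± 0.18 (adjusted p = 0.171). Eif3b, named for its groups after its values were seen, stood at 136, 127, 123 and 118 CPM in floxed and at 145, 139, 146, 262 and 151 in STZ floxed libraries, with a log2 change of 0.42 ± 0.21 (adjusted p = 0.373). Library 17 stood far above the other 4, and without it the change was 0.23 (adjusted p = 0.805).

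The eIF3 subunit Eif3f had the smallest p of the factors in this comparison. It stood at 65.4, 72.1, 85.6 and 81.4 CPM in floxed and at 78.7, 94.2, 103, 172 and 181 in STZ floxed libraries. Libraries 17 and 21 were high and library 3 lay within the floxed range. The log2 change was 0.72 ± 0.25 (adjusted p = 0.169). Another subunit, Eif3e, had a change of 0.71 ± 0.29 (adjusted p = 0.251). Eif1a had 0.82 ± 0.34 (adjusted p = 0.262), with 41.8 CPM in library 17 and 13.3 to 14 in the other 4, and without library 17 it had 0.34 (adjusted p = 0.786). Eif2b5, the catalytic subunit of eIF2B, had a change of 0.50 ± 0.25 (adjusted p = 0.368), and 0.31 without library 17 (adjusted p = 0.773). Factors below 0 included Eif5a with -0.37 ± 0.19 (adjusted p = 0.392), Eif6, which keeps the large ribosomal subunit from joining too early, with -0.30 ± 0.33 (adjusted p = 0.732; -0.07 without library 5, -0.14 without library 14 and -0.50 without library 19), and Eif4e with -0.27 ± 0.23 (adjusted p = 0.624).

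**Figure D3:**
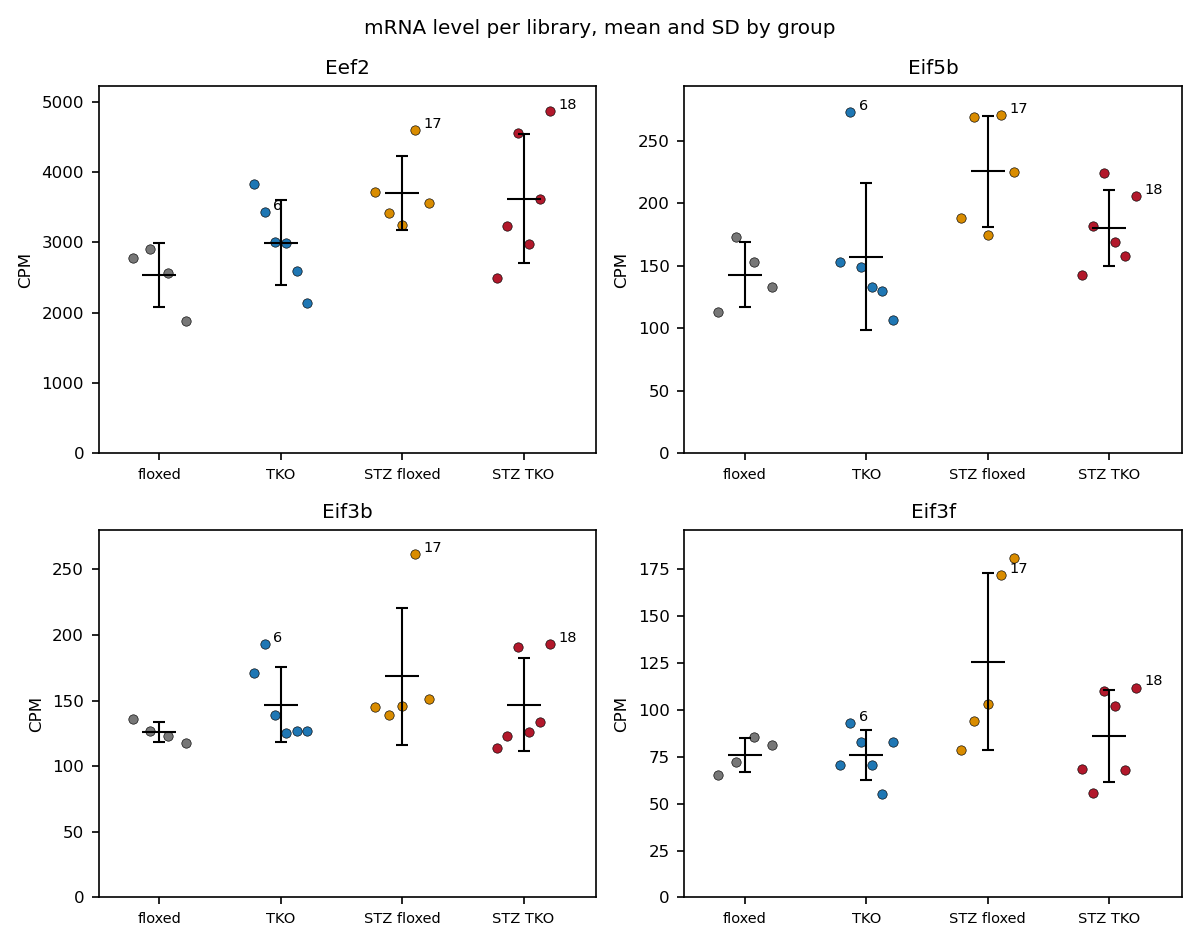
CPM of Eef2, Eif5b, Eif3b and Eif3f in each library (points) by group, with group mean and SD as black bars and libraries 6, 17 and 18 numbered. STZ floxed values lie above floxed ones without overlap in the first 3 genes, and library 17 is high in all 4.

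Diabetes in knockout muscle, STZ TKO against TKO, gave 0 factors past the threshold of edgeR's test and 0 with DESeq2, against 0.142% of all genes by edgeR and 0.877% by DESeq2. At an unadjusted p under 0.05 there were 9 factors, 8 higher and 1 lower, or 15.8%, against 11.3% of all genes, 6.84% higher and 4.46% lower. None had groups without overlap, against 0.624% of all genes. The median log2 change was 0.02, beside 0.01 for all genes, and 30 of 57 lay above 0, against 51.2% of all genes, or 26 of 57 with upper-quartile scaling. That scaling also moved the median of all genes, to -0.04. Without libraries 4, 6, 15 and 20 the factors' median was 0.20, and without library 6 alone 0.11. The eIF3 subunits had 10 of 14 above 0 with a median of 0.12. The eEF1 group had 1 of 6 above 0, Eef1e1 at 0.28, with a median of -0.30.

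Among the factors, the smallest p-value belonged to Eif2a, which can bring initiator tRNA to the ribosome apart from eIF2. Its log2 change was 0.56 ± 0.20 (adjusted p = 0.321). Next came Eif2ak4, the kinase GCN2 that senses uncharged tRNA, with 0.64 ± 0.24 (adjusted p = 0.329). Eif2ak4 ran from 4.05 to 15 CPM with a median of 10.1 in TKO and from 9.4 to 22.5 with a median of 15.4 in STZ TKO libraries. The eIF3 subunits Eif3m and Eif3e had changes of 0.58 ± 0.22 (adjusted p = 0.343) and 0.63 ± 0.25 (adjusted p = 0.351), and Eif5a2 0.84 ± 0.33 (adjusted p = 0.358). Without library 8, Eif2a had 0.41 (adjusted p = 0.304), Eif3m 0.36 (adjusted p = 0.366) and Eif3e 0.37 (adjusted p = 0.392). Eif2ak4 had 0.48 without library 6 (adjusted p = 0.568). The level of Eif5a2 was low, at 0.737 to 3.64 CPM in TKO and 2.73 to 5.34 in STZ TKO libraries. In all 5 genes the groups overlapped. Eif4g3 had a change of -0.05 ± 0.15 (adjusted p = 0.931) here. The comparisons share groups, so their changes are not independent of each other.

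**Figure D4:**
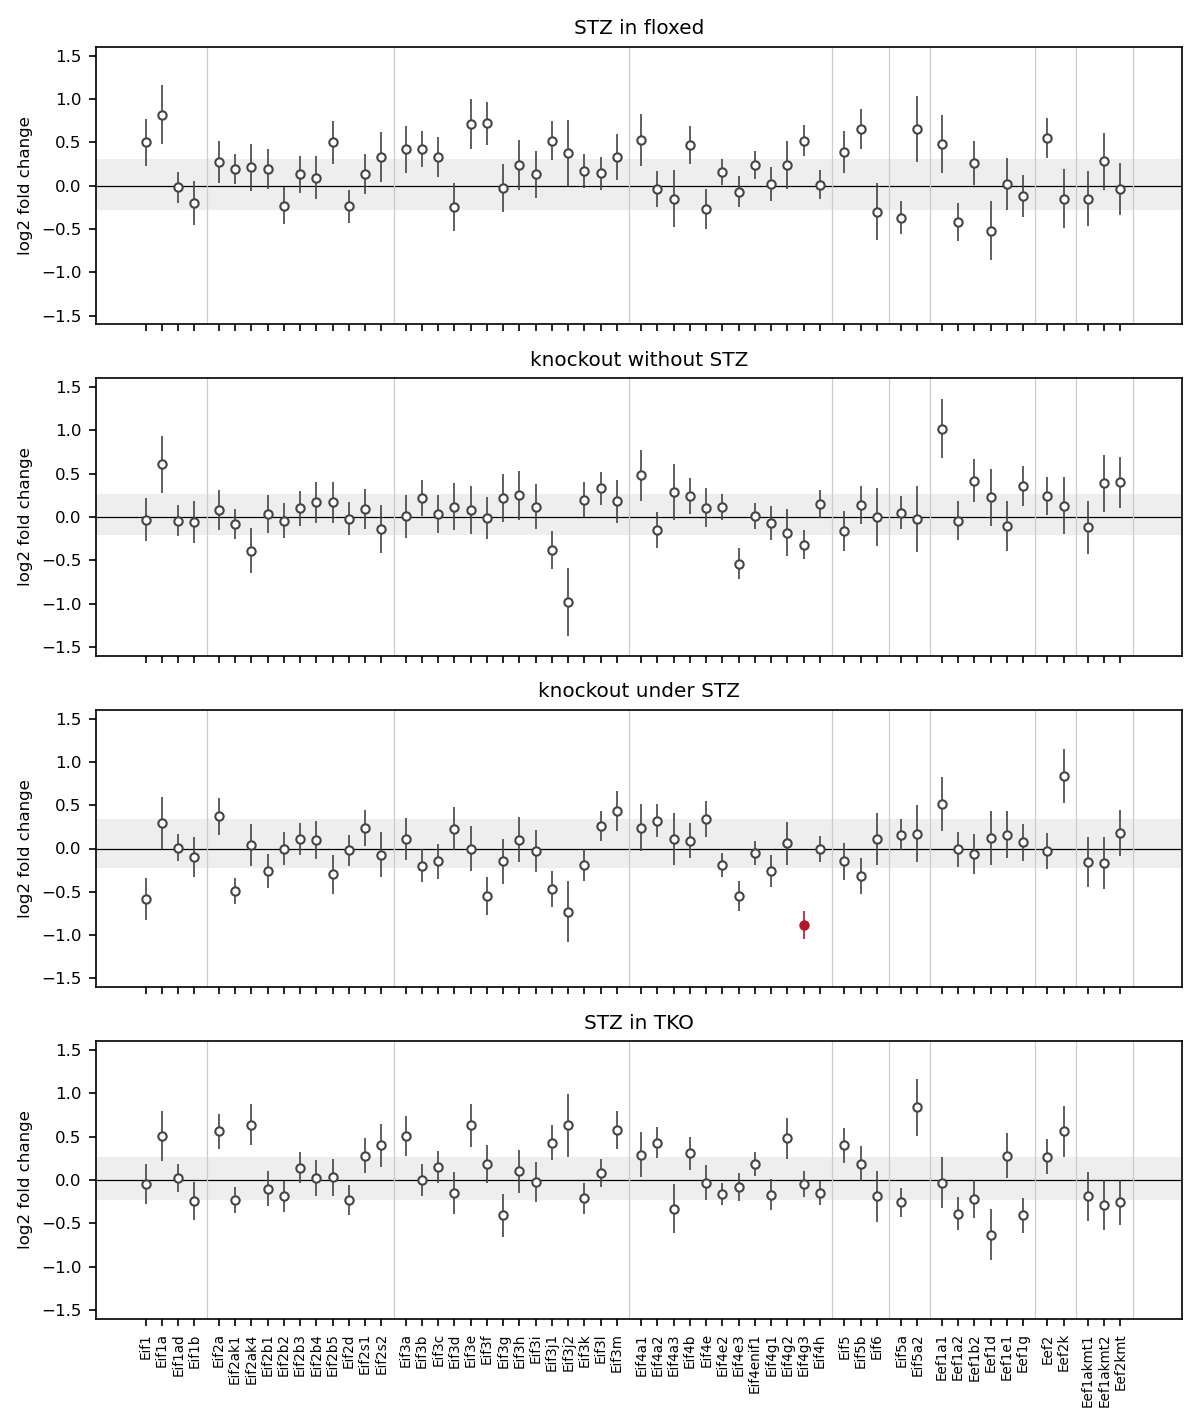
Log2 fold change ± SE of the 57 factors in the 4 comparisons, arranged by role, with a red point for an adjusted p under 0.05 and a grey band for the middle 50% of all genes tested. Eif4g3 in the diabetic knockout, at -0.88, is the single red point.

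The test of the difference between the STZ effects in both genotypes called 0 of 57 factors with edgeR and 0 with DESeq2, against 0.0079% of all genes by edgeR and 0.0316% by DESeq2. The 1 factor with an unadjusted p under 0.05 was Eif4g3, as given above, a share of 1.75% against 3.89% of all genes in either direction and 1.54% below 0. Next by p-value stood Eif2ak1 at -0.41 ± 0.23, Eif4a2 at 0.47 ± 0.28, Eif3f at -0.54 ± 0.33 and Eef2k at 0.71 ± 0.45, each with an adjusted p of 1, and Eef2k had 0.42 without library 18. The median was -0.07, beside 0.01 for all genes, and 22 of 57 lay above 0, against 51.4% of all genes, or 16 with upper-quartile scaling. That scaling also moved the median of all genes, to -0.03. Without libraries 4, 6, 15 and 20 the factors' median was 0.13, and without library 6 alone it was 0.00.

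The isoforms of eEF1A share a function but differ in tissue, as mature muscle fibres make Eef1a2 while Eef1a1 is found in most other cells and in developing muscle. Eef1a2 stood at 950, 932, 722 and 784 CPM in floxed and at 814, 655, 492, 520 and 684 in STZ floxed libraries. It ran from 562 to 1320 with a median of 715 in TKO and from 535 to 738 with a median of 608 in STZ TKO libraries. Its log2 change with STZ was -0.42 ± 0.22 in floxed (adjusted p = 0.397) and -0.39 ± 0.19 in knockout muscle (adjusted p = 0.448), where it was -0.22 without library 6 (adjusted p = 0.758). Eef1a1 stood at 563, 503, 637, 806 and 463 CPM in STZ floxed and at 456 to 1108 with a median of 893 in STZ TKO libraries. Its log2 change was 0.48 ± 0.34 with STZ in floxed muscle (adjusted p = 0.544), 0.51 ± 0.31 for the knockout under STZ (adjusted p = 0.408) and -0.03 ± 0.29 with STZ in knockout muscle (adjusted p = 0.98).

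Per exon length, Eef1a1 made up 29.8 ± 3.69% of both isoforms' mRNA in floxed muscle (SD, n = 4), 44 ± 16.9% in TKO (n = 6), 44 ± 9.47% in STZ floxed (n = 5) and 52.1 ± 10.1% in STZ TKO muscle (n = 6). The log2 ratio of Eef1a1 to Eef1a2 counts was 0.89 higher in STZ floxed than in floxed muscle, with no overlap between the groups. The two-sided exact permutation p was 0.0159, the smallest that these group sizes allow, and 0.127 after Benjamini-Hochberg adjustment over 8 ratio tests. For TKO against floxed the difference was 0.90 (exact permutation p = 0.0571, adjusted 0.152), and without library 20 it was 0.50. It was 0.47 for the knockout under STZ (exact permutation p = 0.221) and 0.47 for STZ in knockouts (exact permutation p = 0.357), where leaving out library 20 gave 0.86 with p = 0.026. The ratio thus passed no test after adjustment. For STZ in floxed muscle it could not have passed by itself, as the smallest p of these group sizes gives 0.127 over 8 tests. Leaving out single libraries gave differences of 0.71 to 1.01 there. The helicase pair gave differences in the log2 ratio of Eif4a1 to Eif4a2 of 0.44 (STZ in floxed), 0.57 (TKO against floxed), 0.03 (knockout under STZ) and -0.10 (STZ in TKO), with exact permutation p of 0.19, 0.0571, 0.939 and 0.697.

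**Figure D5:**
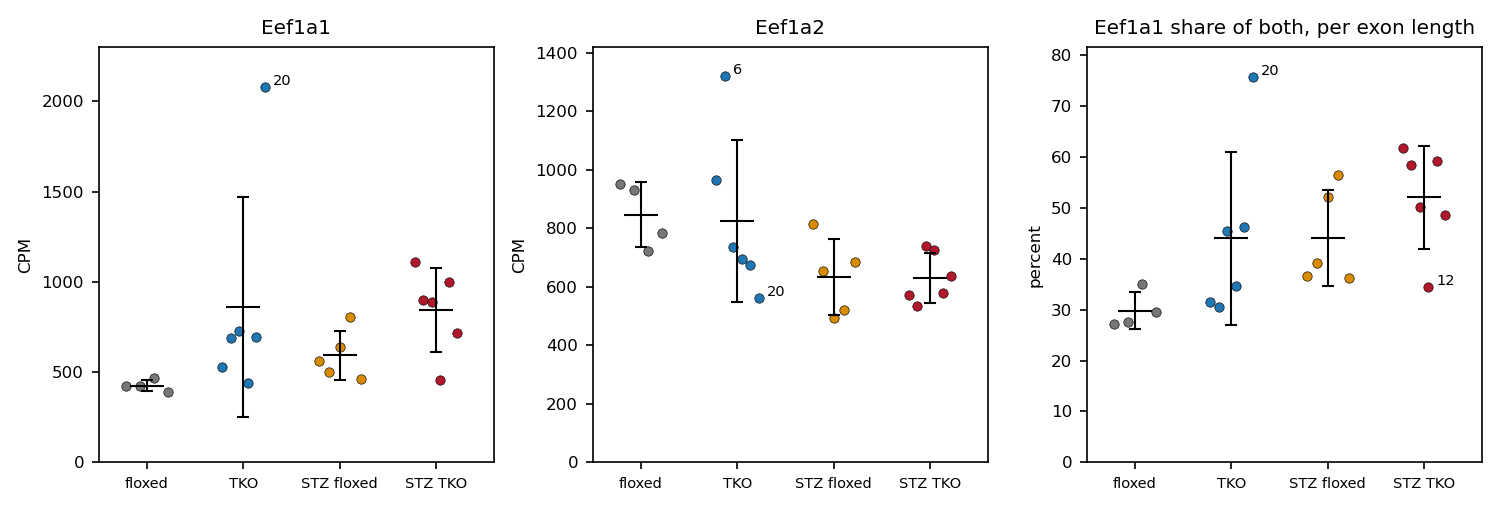
CPM of Eef1a1 and Eef1a2 and the share of Eef1a1 in both per exon length (percent), in each library (points) by group with mean and SD. Floxed libraries lie at 27.1 to 35.1% and STZ floxed ones at 36.1 to 56.4%, and library 20 of the TKO group at 75.6%.

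A list of 35 other genes of the pathway (repressors, kinases, termination and mitochondrial factors, of which 34 were tested) was set beside the factors. None passed edgeR's test in the comparisons of STZ in floxed, of TKO against floxed, and of STZ in TKO, and the medians were 0.20, -0.10 and 0.13, beside 0.02, 0.00 and 0.01 for all genes. In the diabetic knockout 2 of 34 passed, both lower, beside the 4.89% of all genes in either direction and 2.42% lower. The median was -0.16, beside 0.03 for all genes, with 12 above 0. Mknk1, a kinase of the cap-binding protein, fell with a log2 change of -0.53 ± 0.15 (adjusted p = 0.0439), and Eif4ebp1, the repressor that sequesters the cap-binding protein, fell with -1.55 ± 0.45 (adjusted p = 0.046). Mknk1 had an adjusted p between 0.00872 and 0.291 over its alternatives, and Eif4ebp1 between 0.00706 and 0.273. With the macrophage covariate neither passed, at -0.47 and -1.43, nor without libraries 4, 6, 15 and 20, at -0.52 and -1.18. Of the 11 fits without a single library, Mknk1 passed in 3 and Eif4ebp1 in 4. Without library 17, Eif4ebp1 had -0.92 (adjusted p = 0.214).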

How the data were processed

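RNA-seq counts per Ensembl mouse gene were used as the authors deposited them, without normalization. Per the submitters' processing notes, STAR and featureCounts were used with build GRCm38.p4. Versions, annotation, strand setting and the handling of multiply mapping reads were not given in the sources used here. Of the identifiers, 45229 matched GENCODE M21, which gave symbols, coordinates and exon lengths. Groups came from the genotype and drug labels. No 2 libraries agreed within sampling noise (at least 8.61 for chi-square over its degrees of freedom in 46 same-group pairs).

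Counts were tested in R 4.3.3 with edgeR 4.0.16 (limma 3.58.1): filterByExpr, TMM scaling, and a robust quasi-likelihood fit of the 4 group means to all libraries (biological coefficient of variation 0.325). Tests were two-sided, with Benjamini-Hochberg adjustment over 12658 genes per contrast at 0.05. SE is the log2 change divided by the square root of F. Ratios between isoforms were tested by exact permutation, with 0.5 added to each count. Alternatives were DESeq2 1.42.0, other scalings, no filter, subsets of groups, runs of library codes as a block, and libraries left out. The scripts' statistics were tested on simulated data.

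The factors and lists were chosen with earlier results of these data known. Named were factors past the threshold, the 5 smallest p-values of each contrast, the most abundant per exon length, and a fixed set of well-known factors. Of the promoters, 45 of 60 factors had a RefSeq entry.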

Additional observations from a re-analysis of the deposited data

Results flagged for a closer look

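In 12 of 104 sets of values of 1 gene or ratio within 1 group, 1 library stood far from the others by Dixon's test at the 95% level. The level allows about 1 in 20 such sets for independent, normally distributed values. The sets here share libraries, and many of the genes were named by their p-values, so the count does not test for an excess. Library 20 of the TKO group stood at 2082 CPM for Eef1a1, where the other 5 ran from 441 to 730. The same library had a log2 ratio of Eef1a1 to Eef1a2 of 1.89, where the others ran from -0.93 to 0.04. Library 6 of the TKO group stood at 273 CPM for Eif5b, against 107 to 153 in the others. Library 20 stood lowest for Eif4e, at 72.7 CPM against 96.8 to 108. In the STZ floxed group, library 17 stood at 41.8 CPM for Eif1a, against 13.3 to 14, at 253 CPM for Eif3m, against 144 to 155, and at 262 CPM for Eif3b, against 139 to 151. Library 18 of the STZ TKO group stood at 36.9 CPM for Eif1a, against 18.6 to 24.3. Library 8 of that group stood at 427 CPM for Eif5a, against 261 to 288, at 32.8 for Eif6, against 13.5 to 20.5, at 177 for Eif4e, against 62.8 to 102, and lowest for Eif4g1, at 538 against 767 to 890.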

How the results depend on the processing

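No paired analysis was possible because each title number occurs once, so no number links libraries of different groups. Runs of consecutive library codes, which the labels do not explain, span groups and were fitted as a block instead. In the diabetic knockout, 3 factors passed with DESeq2 and also with that block, 2 without libraries 4, 6, 15 and 20 (Eif4g3 and Eif2a), and 1 to 2 when single libraries were left out. With all libraries, Eif2a had a log2 change of 0.37 ± 0.21 in this comparison (adjusted p = 0.377). With the macrophage covariate 1 passed, Eef2k, and Eif4g3 did not. For STZ in floxed muscle, 1 passed with DESeq2 and 0 with any library left out. All genes called in the diabetic knockout numbered 1011 with DESeq2, 1068 with the block, 312 with only those groups and 221 with the macrophage covariate, against 619. Without libraries 4, 6, 15 and 20 there were 498 of them, and 380 to 676 over single libraries left out. With DESeq2 they numbered 425 against 171 for STZ in floxed, 351 against 65 for TKO against floxed and 111 against 18 for STZ in TKO. Over single libraries left out these counts ranged from 31 to 333, 32 to 105 and 7 to 61 in the same order. Over the other settings they ranged from 121 to 283, 18 to 125 and 4 to 98. Without libraries 4, 6, 15 and 20 the factors' median was 0.20 for STZ in TKO and 0.13 for the interaction. The log2 ratio of Eef1a1 to Eef1a2 ranged from 0.5 to 1.07 for TKO against floxed and from 0.3 to 0.86 for STZ in TKO over single libraries left out. That of Eif4a1 to Eif4a2 for TKO against floxed was 0.57 with an exact permutation p of 0.0476 when 5 was added to each count, and ranged from 0.42 to 0.66. For the knockout under STZ it was -0.15 without either set of 4 libraries (4, 15 and 20 with 6 or with 16), and ranged from -0.14 to 0.21. For STZ in TKO it was 0.08 without the set with 6, and ranged from -0.19 to 0.04. Some small changes of single genes turned sign. Eef1a2 for TKO against floxed was 0.01 with upper-quartile scaling, 0.03 with the block, 0.17 without libraries 4, 15, 16 and 20, 0.12 with the macrophage covariate, and -0.21 to 0.07 over single libraries left out. Under STZ it was 0.00 with only those groups, 0.06 without either set, 0.13 with the covariate, and -0.08 to 0.11 over single libraries. Eef1a1 was -0.24 with the covariate under STZ. For STZ in TKO it was 0.20 with the block, 0.28 without the set with 16, 0.30 without that with 6, 0.01 without 17 and 18, 0.13 with the covariate, and -0.16 to 0.44 over single libraries. Eef2 under STZ was 0.08 without either set, 0.20 with the covariate, and -0.14 to 0.05 over single libraries. Eif4g3 for STZ in TKO ranged from -0.12 to 0.05 over single libraries. The cause was not tested. The covariate and both sets of 4 and the set of 2 libraries left out were chosen after seeing the data.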
